A study of Mus musculus with 7 samples.

Results

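Fibroblasts of the leptomeninges and of the vessel wall make up a small class of segmented cells in these brain sections, and 9451 of 384076 cells were assigned to it. A cell counted as a fibroblast if it held at least 50 transcripts, at least 4 transcripts of Dcn and Col1a1 together, at least 10 of Dcn, Col1a1, Aldh1a2, Fmod and Igf2 together, at most 2 of Acta2 and at most 5 of the neuronal genes Slc17a6, Slc17a7, Gad1 and Gad2 together. The cells were thus chosen by measured counts, and the levels of these genes in them are given as a description. Fibroblast below means any cell that met this rule. Of these cells 15.4% had at least 10 Htr2c transcripts and, as described below, a profile that goes against the label. The data are Xenium transcript counts of 297 genes, in which RNA molecules are read out by imaging the section and each is given to the cell outline it falls in. The tissue was fresh-frozen wild-type (WT) mouse brain, cut as 10 µm coronal hemisections through the anterior thalamic nuclei. There were 2 anterior sections (bregma -0.58 mm), 2 intermediate sections (bregma -0.70 to -0.82 mm) and 3 posterior sections (bregma -0.94 mm). The labels name no treatment, age, sex or number of animals. By the slide numbers in their titles, sections of replicates 1 and 2 shared a slide, and those of replicates 3 and 4, both posterior, shared another. Separate animals are not stated for the replicates. All p-values below therefore take sections as the units, and the spread between sections may be technical. In fits with the section as a block, the spread measured is that of the difference within a section, from section to section.

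Fibroblasts line the surface of the brain in the leptomeninges and follow the larger vessels inward, where they lie outside the smooth muscle. They lay down collagens and small proteoglycans, secrete growth factors and their binding proteins, and in the leptomeninges they make retinoic acid and carry transporters and gap junctions. Dcn (decorin) and Fmod (fibromodulin) encode small proteoglycans that bind collagen, Col1a1 encodes the main chain of type I collagen, Aldh1a2 the enzyme that makes retinoic acid, and Igf2 an insulin-like growth factor of the meninges and choroid plexus.

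Depth was lower in fibroblasts than in other cells in every section. The median fibroblast held 226 and 218 transcripts in the anterior sections, 234 and 231 in the intermediate sections, and 219, 215 and 253 in the posterior sections, whereas the median of all other cells was between 280 and 395. Negative control probes summed to between 0.128 and 0.453 counts per fibroblast and between 0.385 and 0.884 per other cell. Only 8 barcodes, read without their suffix, occurred in more than 1 section.

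The share of cells that met the rule was 1.98% and 2.41% in the anterior sections, 2.33% in each of the intermediate sections, and 2.90%, 2.67% and 2.61% in posterior replicates 1, 3 and 4. Counting error was small beside the widest of these differences. The 95% Wilson interval ran from 1.87% to 2.10% in anterior replicate 1 and from 2.76% to 3.05% in posterior replicate 1. It was not small beside the narrowest: the intervals of anterior replicate 2 (2.28% to 2.54%) and posterior replicate 4 (2.47% to 2.75%) overlapped. All 3 posterior sections lay above both anterior sections. The mean was 2.73% ± 0.156 in posterior sections (SD, n = 3) and 2.19% ± 0.300 in anterior sections (SD, n = 2), a difference of 0.534 percentage points. A two-sided exact permutation test gave p = 0.2, the smallest value that 3 against 2 sections allow, so the design cannot take this difference past a threshold of 0.05. The groups overlapped, with exact p = 0.4, when the limits on Acta2 and neuronal genes were dropped (difference 0.605) and when fibroblasts with 3 or more Htr2c transcripts were left out (difference 0.487). The median transcript total of fibroblasts averaged 229 ± 20.9 in posterior sections and 222 ± 5.66 in anterior sections (SD, n = 3 and 2; exact permutation p = 1.0), with groups that overlapped.

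**Figure D1:**
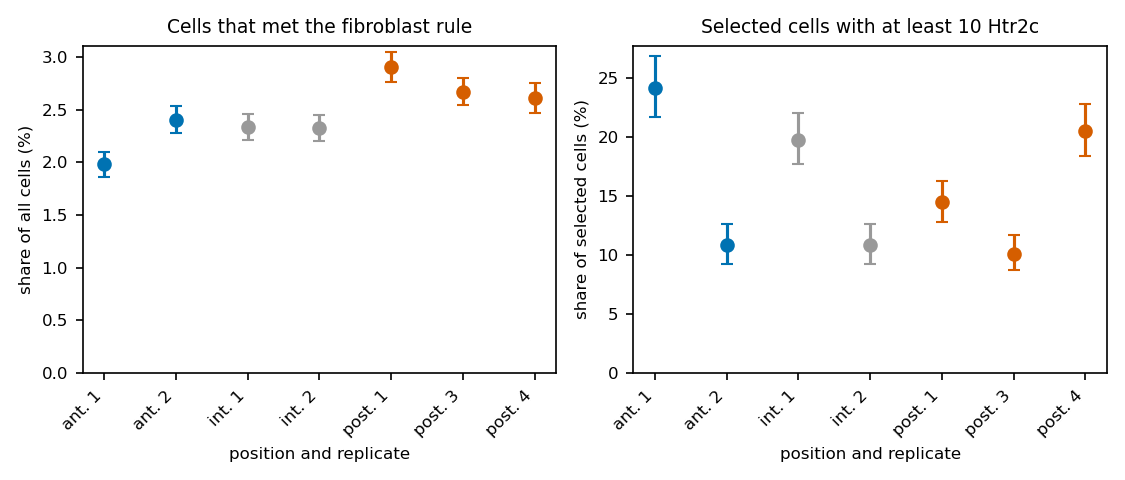
Share of all cells that met the fibroblast rule (left, %) and share of these cells with at least 10 Htr2c transcripts (right, %) in each of the 7 sections, anterior (ant.), intermediate (int.) and posterior (post.) with replicate numbers. Points are shares and bars 95% Wilson intervals; the left shares run from 1.98% to 2.90% and the right ones from 10.1% to 24.1%.

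The genes that chose the cells were between 18.4 and 37.5 times as abundant per fibroblast as per other cell, the other cells being all cells that did not meet the rule. Dcn averaged 9.93 ± 1.04 transcripts per fibroblast over the sections (SD, n = 7), with 9.37 and 8.43 in the anterior, 10.5 and 9.35 in the intermediate, and 11.3, 9.54 and 10.96 in the posterior sections. Col1a1 averaged 3.90 ± 0.384 and Igf2 15.7 ± 1.59 transcripts per fibroblast. The Igf2 mean takes in the cells with at least 10 Htr2c transcripts, in which Igf2 was higher than in those without Htr2c. The 2 remaining genes varied more between sections. Aldh1a2 had 2.81 and 6.36 transcripts per fibroblast in the anterior sections, 4.18 and 5.16 in the intermediate sections, and 6.04, 7.17 and 5.42 in the posterior sections. Fmod had 2.855 and 5.11 in the anterior, 3.475 and 4.35 in the intermediate, and 4.12, 5.14 and 3.075 in the posterior sections. For both genes anterior replicate 1 was the lowest section, and the positions overlapped. Levels are compared here between cells for the same gene and not between genes, because probes need not detect their targets equally well.

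Genes of fibroblasts that the rule did not use were also higher in these cells. Of 14 further fibroblast genes listed, 11 were higher per cell in every fibroblast section than in the other cells of any section (78.6%, against 63 of all 297 genes, 21.2%). These counts are a description, since the same cells were chosen by counts that vary with these genes. Slc13a4, a sulfate transporter of the meninges and choroid plexus, averaged 6.35 ± 0.606 transcripts per fibroblast (SD, n = 7; lowest section 5.735, highest 7.34) against 0.303 to 0.428 per other cell, a ratio of 17.6. Gjb2, which encodes the gap junction protein connexin 26, averaged 2.28 ± 0.537 transcripts per fibroblast, 20.3 times the level of other cells. Both genes stood clear of the other cells in every section. Their means take in the cells with at least 10 Htr2c transcripts. Slc13a4 was higher and Gjb2 lower in those cells than in fibroblasts without Htr2c, as given below.

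Cyp1b1, a cytochrome P450 of steroid and retinoid metabolism, averaged 1.68 ± 0.157 transcripts per fibroblast (ratio 23.2), and Serpinf1, which encodes the secreted pigment epithelium-derived factor, averaged 2.33 ± 0.188 (ratio 8.83). Spp1, which encodes the matrix protein osteopontin, averaged 1.76 ± 0.630 (ratio 11.2). Pdgfra, the platelet-derived growth factor receptor of fibroblasts and oligodendrocyte precursors, averaged 3.57 ± 0.439 (ratio 4.21). Among the binding proteins of insulin-like growth factors, Igfbp4 had a ratio of 2.56, Igfbp5 of 1.75 and Igfbp6 of 1.37. Adamtsl1, a secreted matrix protein related to the ADAMTS proteases, was not set apart, at 0.446 ± 0.0769 transcripts per fibroblast and 0.444 ± 0.0613 per other cell (SD, n = 7 sections each). The 3 list members with ranges that met those of other cells were Igfbp6, Adamts2 and Adamtsl1.

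Slc13a4, Gjb2 and Spp1 were higher per fibroblast than per endothelial cell, and the mean of Fn1 over all fibroblasts was lower. Endothelial cells for this comparison (12326 cells) were chosen by Cldn5, Pecam1 and 5 further endothelial genes, and smooth muscle cells (527 cells) by at least 10 Acta2 transcripts, both with at most 1 transcript of Dcn and Col1a1 together. Their low Dcn and Col1a1 therefore follow from the choice. Slc13a4 averaged 0.194 transcripts per endothelial cell and 0.594 per smooth muscle cell, and Gjb2 averaged 0.0673 per endothelial cell and 0.1025 per smooth muscle cell, and Spp1 0.0593 and 0.149. Fn1, which encodes fibronectin, averaged 3.89 ± 1.48 transcripts per fibroblast, 5.48 per endothelial cell and 4.497 per smooth muscle cell. The fibroblast mean of Fn1 takes in the cells with at least 10 Htr2c transcripts. Fn1 was much lower in those cells than in fibroblasts without Htr2c, as given below. In anterior replicate 2 the level over all fibroblasts was above the endothelial mean. Igfbp4 averaged 3.74 ± 0.551 per fibroblast, 0.326 per endothelial cell and 3.11 per smooth muscle cell.

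**Figure D2:**
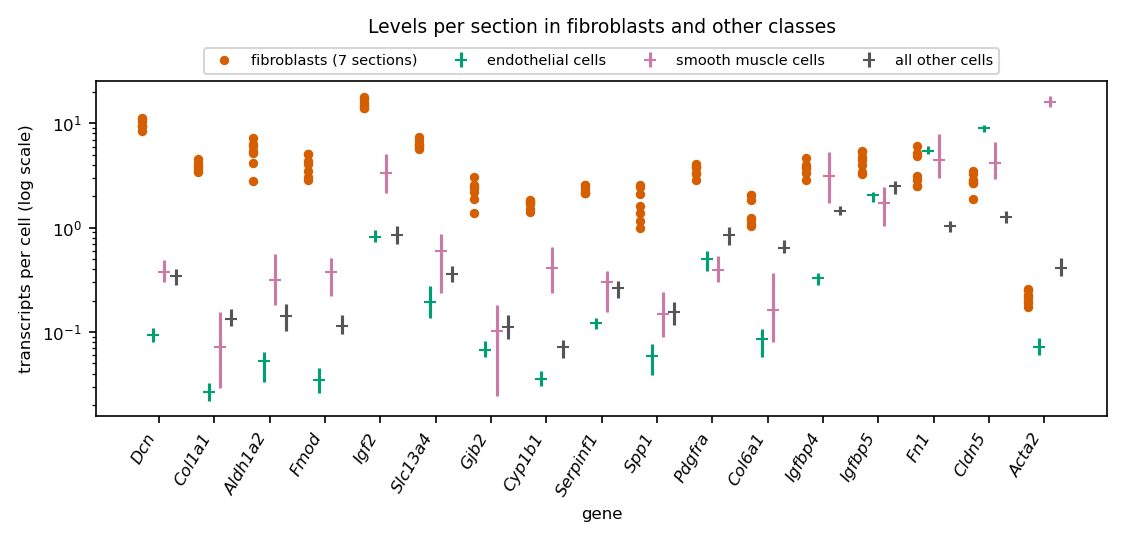
Transcripts per cell (log scale) of the 5 rule genes, 10 further genes of fibroblasts, and Cldn5 and Acta2 as markers of endothelial and smooth muscle cells. Orange points are the 7 sections of fibroblasts; the other marks are means over sections with the lowest and highest section. Slc13a4 lies at 5.735 to 7.34 in fibroblasts, above all other classes, whereas Fn1 in endothelial cells, 5.48 on average, lies above the fibroblast mean of 3.89. That fibroblast mean takes in cells with at least 10 Htr2c transcripts, which were low in Fn1.

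Markers of other cell types show what the fibroblast segments also held. All 14 endothelial markers had a higher mean per fibroblast than per other cell, as had 93 of all 297 genes (31.3%). Their sum ran from 14.5 to 22.8 transcripts per fibroblast, against 6.40 to 8.33 per other cell. By the measure used for the further fibroblast genes, 13 of 14 were higher in every fibroblast section than in other cells of any section (92.9%). That share was above the 78.6% of the further fibroblast genes, against 21.2% of all genes. The 3 ependymal markers were all higher in every fibroblast section than in other cells, with sums of 1.78 to 3.09 per fibroblast against 0.689 to 0.883 per other cell and a median ratio of 3.37. Spag16 of this list was also high in the cells with at least 10 Htr2c transcripts described below. Astrocyte markers summed to 11.6 to 17.9 transcripts per fibroblast against 13.9 to 18.6 per other cell. Of these, 3 of 8 had a higher mean in fibroblasts (37.5%, near the 31.3% of all genes, with a median ratio of 0.652). Gfap, the intermediate filament of astrocytes, was the astrocyte marker that was higher in every fibroblast section, at 5.575 ± 1.59 transcripts (ratio 3.19). The 9 measured macrophage and microglia markers summed to 3.98 to 4.69 per fibroblast and 3.73 to 4.85 per other cell. Neuronal markers summed to 3.27 to 5.09 against 33.0 to 44.4, and oligodendrocyte markers to 1.53 to 2.78 against 7.07 to 9.40, but 4 neuronal genes were limited by the rule. Smooth muscle markers summed to 0.921 to 1.13 per fibroblast against 0.649 to 0.903 per other cell. Only Carmn of these 3 was higher in fibroblasts, and Acta2 was limited by the rule. Pericyte markers summed to 1.88 to 2.27 per fibroblast against 2.79 to 3.68 per other cell. No list had a marker at 0. Cell outlines can take in RNA of adjoining cells, and whether endothelial and astrocyte transcripts came from the fibroblasts or from cells beside them was not tested. No marker specific to perivascular fibroblasts was listed and no cell positions were used, so the leptomeningeal and perivascular cells of the label were not told apart.

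Part of the selected cells went against the label. Htr2c, the serotonin 2C receptor gene known for its high level in choroid plexus epithelium, averaged 3.865 ± 1.33 transcripts per selected cell, 3.58 times the level of other cells. It was at 0 in 6110 selected cells (64.6%) and at 10 or more in 1451 (15.4%), with 236 cells at 8 or 9 and 219 at 10 or 11 transcripts, near the limit drawn here. This division was chosen after the values were seen and carries no test. The share of Htr2c-high cells was 24.1% and 10.8% in the anterior sections, 19.7% and 10.8% in the intermediate sections, and 14.4%, 10.1% and 20.5% in posterior replicates 1, 3 and 4.

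Htr2c-high cells had a profile of their own. Vat1l had 17.2, 19.7 and 20.6 transcripts per cell (lowest, median and highest section) in Htr2c-high cells, against 0.209, 0.294 and 0.404 in selected cells without Htr2c. Strip2 averaged 11.6 ± 1.03 against 0.0929 ± 0.0138 (SD, n = 7 sections each), and Spag16, which encodes a protein of ciliary axonemes, averaged 3.68 ± 0.280 against 0.262 ± 0.102. No section of one kind overlapped a section of the other in these genes.

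Genes of the leptomeningeal profile differed in both directions between the 2 kinds of cell. Igf2 had 23.6, 28.5 and 37.6 transcripts per cell in Htr2c-high cells (lowest, median and highest section), against 11.1, 13.1 and 14.2 in those without Htr2c. Slc13a4 averaged 13.6 ± 1.33 against 4.91 ± 1.19. Aldh1a2 ran the other way, with 0.132, 0.350 and 0.886 in Htr2c-high cells and 4.47, 7.36 and 9.05 in those without Htr2c. Gjb2 averaged 0.383 ± 0.0967 against 2.88 ± 0.538, Fn1 0.278 ± 0.118 against 5.10 ± 1.64, and Gfap 0.237 ± 0.198 against 7.20 ± 1.99. Cyp1b1 was at 1.496 ± 0.192 against 1.57 ± 0.197. Dcn was at 8.77 ± 0.620 against 9.84 ± 1.31, where the rule required Dcn and Col1a1 of all these cells. These are counts per cell with no scaling, and the median total was 358 transcripts in Htr2c-high cells and 199 in those without Htr2c. The high Htr2c, Strip2, Vat1l and Spag16 and the low Aldh1a2, Gjb2 and Fn1 go against the label of fibroblast, and these cells are called Htr2c-high cells here.

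**Figure D3:**
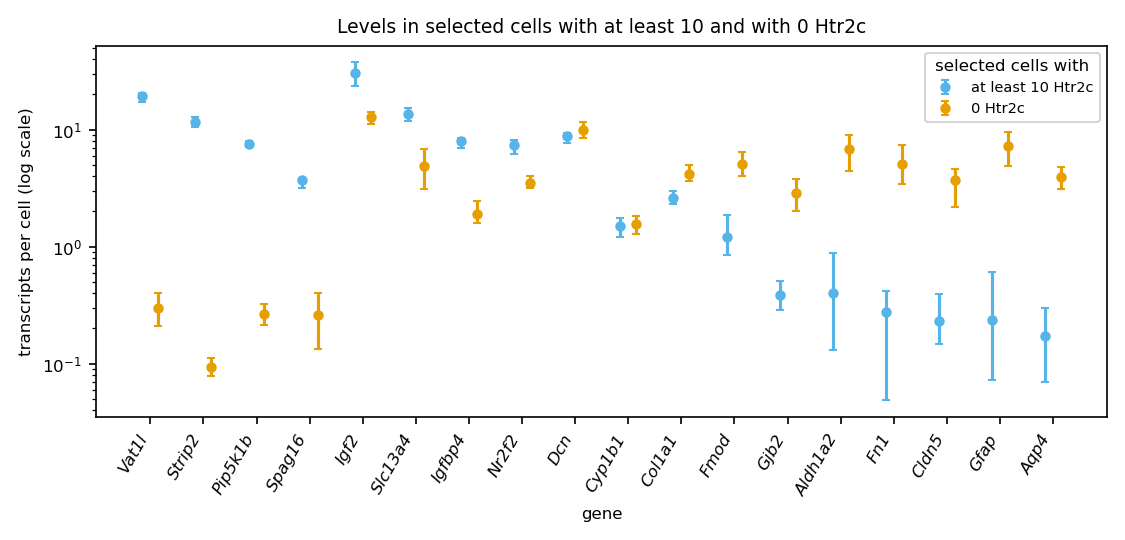
Transcripts per cell (log scale) of 18 genes in selected cells with at least 10 Htr2c transcripts (1451 cells, blue) and with 0 (6110 cells, orange). Points are means over 7 sections and bars the lowest and highest section; Vat1l, Strip2, Pip5k1b and Spag16 are higher in the first, Aldh1a2, Fn1, Cldn5, Gfap and Aqp4 in the second. Dcn and Cyp1b1 overlap, and Dcn was part of the rule.

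In the whole series 4680 cells had at least 10 Htr2c and at least 5 Strip2 transcripts, and 1260 of them (26.9%) met the fibroblast rule. Those that met it and those that did not had alike mean Igf2, 32.7 and 32.1 transcripts, and Slc13a4, 14.7 and 14.5, and differed in Dcn and Col1a1 together, 10.8 against 0.970, which the rule itself fixes. Cells that missed the rule only through fewer than 4 Dcn and Col1a1 transcripts numbered 5579 and averaged 24.4 Igf2 and 13.7 Htr2c transcripts. Cells that missed it only through Acta2 numbered 3691. Just inside that limit, the 1577 fibroblasts with 1 or 2 Acta2 transcripts averaged 10.7 Dcn, 5.87 Aldh1a2, 6.05 Slc13a4 and 3.36 Htr2c transcripts. Just outside it, the 577 cells with 3 or 4 averaged 11.5 Dcn, 5.84 Aldh1a2, 3.87 Slc13a4 and 0.939 Htr2c transcripts, so that Slc13a4 and Htr2c were lower there. At the lower edge of the rule, cells in which the 5 genes summed to 10 or 11 (410 cells) had 1.49 Slc13a4 transcripts and those with 8 or 9 (308 cells) had 1.20. Because of the Htr2c-high cells, the divisions of fibroblasts below were also tested among the 7046 selected cells (74.6%) that had at most 2 Htr2c transcripts, an alternative chosen after seeing the data. These are called the Htr2c-low set.

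Position along the anterior to posterior axis was not accompanied by a change that passed the test. Counts were summed over fibroblasts in each section and tested with edgeR's quasi-likelihood test with Benjamini-Hochberg adjustment over all genes tested. Between posterior and anterior sections, 0 of 296 genes passed an adjusted p of 0.05 (0.00%), and 12 had an unadjusted p under 0.05 (4.05%). DESeq2 also called 0. The 5 smallest p-values, none of which passed (adjusted p = 0.998), belonged to Chodl with a log2 difference of 1.46 ± 0.41 (SE), Unc13c with -0.62 ± 0.19, Ebf3 with -1.07 ± 0.36, Gjc3 with 0.79 ± 0.26 and Shisa6 with 0.88 ± 0.31. Chodl had only 0.00601 to 0.0284 transcripts per fibroblast in the 7 sections. Gjb2 had a log2 difference of 0.33 ± 0.30 and Fn1 of -0.31 ± 0.43 (SE), so that changes of moderate size in these genes were not detectable with these sections. The rule genes were kept in the fit, but they chose the cells and are described without a test. Among them Aldh1a2 had a log2 difference of 0.37 ± 0.34 and Dcn of 0.18 ± 0.22 (SE).

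Between intermediate and anterior sections, which shared a slide, edgeR called 0 of 296 genes (0.00%), 6 had an unadjusted p under 0.05 (2.03%), and DESeq2 called 0. The genes with the smallest p were Galnt14, C1ql2, Rfx4, Chodl and Sdk2, all at an edgeR adjusted p of 0.999. The change between posterior and anterior sections was also compared between fibroblasts and all other cells. That interaction called 0 of 297 genes in edgeR (0.00%), with 12 at an unadjusted p under 0.05 (4.04%), and 0 in DESeq2. Chodl, Sox10, Gjc3, Car4 and Ndst4 came first (adjusted p = 0.984). Against endothelial cells the interaction again called 0 of 297 genes (0.00%), with 9 at an unadjusted p under 0.05 (3.03%) and 0 in DESeq2, and Chodl, Ebf3, Vip, 2010300C02Rik and Fibcd1 came first (adjusted p = 0.971). In all 5 gene lists, for matrix, insulin-like growth factors, retinoid and oxidative genes, transport and secreted signals, 0 members passed in any of these 4 comparisons. The lists hold the 5 rule genes, for which this count is a description, since their levels follow in part from the choice of cells.

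Several matrix and signal genes of fibroblasts differed between sections by replicate number more than by position. These genes were picked after their values were seen, so they are described without a test. Fn1 had 2.49, 2.49 and 2.90 transcripts per fibroblast in the anterior, intermediate and posterior sections of replicate 1, 6.135 and 5.23 in the anterior and intermediate sections of replicate 2, 4.85 in replicate 3 and 3.16 in replicate 4. Igfbp6 had 0.520, 0.576 and 0.515 in replicate 1, 1.35 and 1.42 in replicate 2, 1.61 in replicate 3 and 0.657 in replicate 4. Rspo3, which encodes a secreted enhancer of Wnt signalling, had 0.268, 0.273 and 0.312 in replicate 1, 1.03 and 0.817 in replicate 2, 1.06 in replicate 3 and 0.435 in replicate 4. In each of these genes replicates 2 and 3 were high and replicates 1 and 4 low. Replicates 1 and 2 shared a slide, and replicates 3 and 4 shared another. The cause of this order was not tested. Other cells showed no such division, with Fn1 between 0.901 and 1.15, Igfbp6 between 0.628 and 0.784 and Rspo3 between 0.279 and 0.353.

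The matrix genes Spp1 and Col6a1 followed the same order. Col6a1, a chain of type VI collagen, had 1.08, 1.05 and 1.18 transcripts per fibroblast in replicate 1, 2.04 and 1.85 in replicate 2, 2.07 in replicate 3 and 1.235 in replicate 4. Dcn and Cyp1b1 did not follow it: Dcn was between 8.43 and 11.3 and Cyp1b1 between 1.42 and 1.86, with replicate 2 at the low end for Dcn. The share of Htr2c-high cells ran opposite, from 10.1% to 10.8% in replicates 2 and 3 and from 14.4% to 24.1% in replicates 1 and 4. Among fibroblasts with at most 2 Htr2c transcripts, Igfbp6 was between 0.484 and 0.650 in replicate 1, 1.61 and 1.545 in replicate 2, 1.87 in replicate 3 and 0.880 in replicate 4, and Fn1 was between 3.37 and 3.72 in replicate 1, 7.37 and 6.41 in replicate 2, 5.94 in replicate 3 and 4.35 in replicate 4. For Igfbp6 and Fn1 the order of replicates was present over all fibroblasts and among those with at most 2 Htr2c transcripts. What part the Htr2c-high cells had in it was not tested.

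**Figure D4:**
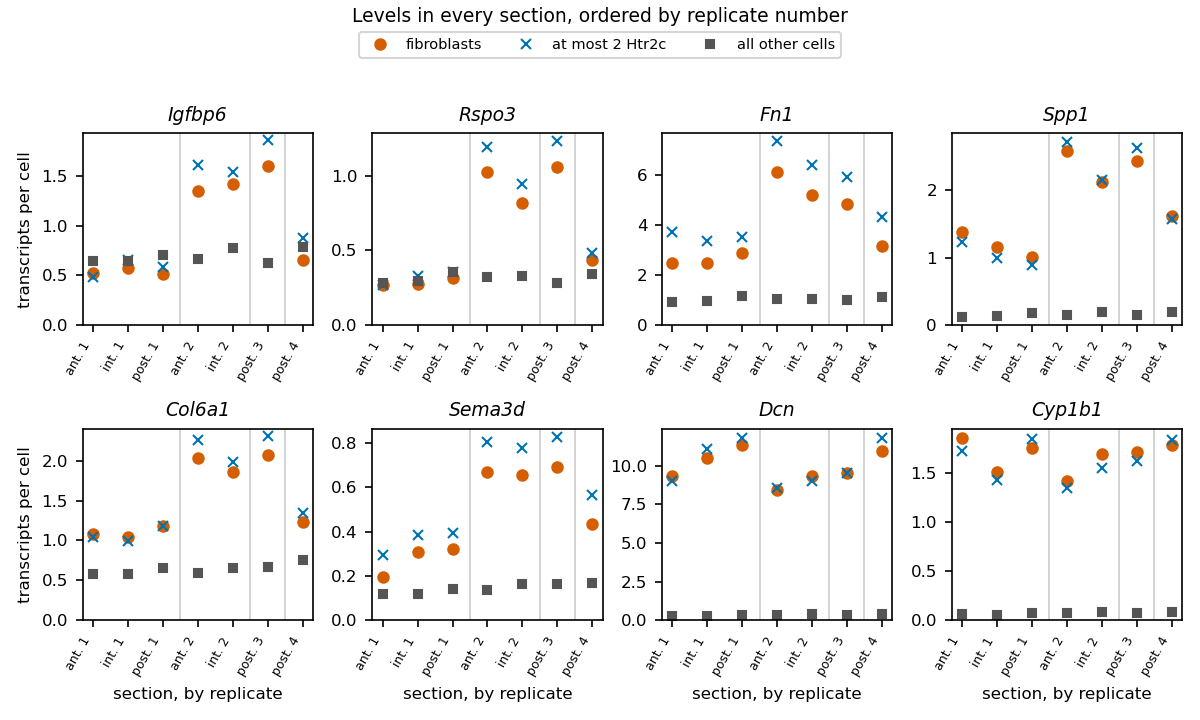
Transcripts per cell of 8 genes in every section, ordered by replicate number (grey lines divide replicates 1, 2, 3 and 4). Orange points are all fibroblasts, blue crosses fibroblasts with at most 2 Htr2c transcripts and grey squares all other cells; Igfbp6, Rspo3, Fn1, Spp1, Col6a1 and Sema3d are high in replicates 2 and 3, and Dcn and Cyp1b1 are not.

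Fibroblasts with endothelial transcripts were next compared with those without, to describe how the fibroblast profile varies with vessel transcripts in or beside the segment. The 4585 cells with at least 5 transcripts of Cldn5, Pecam1, Adgrl4, Emcn, Kdr, Cd93 and Sox17 made up 39.8% to 54.8% of the fibroblasts of a section, and the 3035 cells with at most 1 made up 26.9% to 37.8%. Their median totals were 260 and 184 transcripts, and the test therefore compares counts scaled to the whole sum (TMM). Beside the 7 genes that made the division, 172 of 287 genes passed edgeR's test with the section as a block (59.9%), 86 higher (30.0%) and 86 lower (30.0%) in fibroblasts with endothelial transcripts. Among fibroblasts with at most 2 Htr2c transcripts the count was 139 of 283 (49.1%), 71 higher (25.1%) and 68 lower (24.0%). Of the 172 calls, 115 were also made there in the same direction, 2 (Cdh6 and Clmn) in the opposite one and 55 not.

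All 7 endothelial markers that were tested rose in fibroblasts with endothelial transcripts, as did 4 of 5 pericyte markers (30.0% of all genes were called higher). The Htr2c-low set gave the same counts. Ly6a had 5.65, 6.87 and 7.75 transcripts per cell (lowest, median and highest section) against 0.192, 0.267 and 0.347, a log2 difference of 4.46 ± 0.12 (SE, edgeR adjusted p = 3.38e-11). Zfp366, Nostrin and Fgd5 had log2 differences of 4.67, 4.56 and 4.44. These genes vary with the 7 genes of the division, since endothelial cells express all of them. The list of astrocyte markers fell in 7 of 8 members and that of oligodendrocyte markers in 5 of 5, against 30.0% of all genes, and in 7 of 8 and 4 of 5 in the Htr2c-low set. Gfap had 2.33, 3.78 and 4.41 transcripts per cell in fibroblasts with endothelial transcripts and 5.84, 8.19 and 13.3 in those without (log2 difference -1.54 ± 0.12, edgeR adjusted p = 4.34e-07). The groups did not overlap for either gene.

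Of the fibroblast genes outside the rule, 4 of 14 rose with endothelial transcripts and 7 fell, where 30.0% of all genes were called in each direction, and the median log2 difference was -0.28 against -0.02 over all genes tested. The share that rose was thus near that of all genes. In the Htr2c-low set 3 rose and 8 fell. Fn1 had 3.58, 4.37 and 6.26 transcripts per cell against 0.839, 1.96 and 5.935, and was higher in fibroblasts with endothelial transcripts in 7 of 7 sections (log2 difference 0.78 ± 0.24, edgeR adjusted p = 0.0149). The ranges overlapped across sections, and the call was lost with position in place of the section block (log2 difference 0.49). Igfbp4 rose by a log2 difference of 1.01 ± 0.12 (edgeR adjusted p = 1.57e-05), and by 0.41 ± 0.11 among fibroblasts with at most 2 Htr2c transcripts (adjusted p = 0.00724). Spp1 and Cyp1b1 rose by 0.39 and 0.29, calls that the stricter member rule ended (0.27 and 0.09), and for Cyp1b1 the call was also lost among fibroblasts with at most 2 Htr2c transcripts (0.19).

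Among the genes that fell, Igfbp5 had 2.995, 3.48 and 4.503 transcripts per cell in fibroblasts with endothelial transcripts and 3.72, 5.66 and 6.998 in those without (log2 difference -0.85 ± 0.08, edgeR adjusted p = 3.48e-06), lower in 7 of 7 sections. The value in the Htr2c-low set was -0.86. Igfbp6 fell by 0.88 on the log2 scale (0.75 in the Htr2c-low set), Sema3d, a secreted guidance ligand, by 1.13 (0.87), and Rspo3 by 1.19 (1.14). Gjb2 fell by 0.70, and by 0.42 in the Htr2c-low set. Slc13a4 fell by 0.23 (edgeR adjusted p = 0.0208), a call lost without intermediate replicate 1 or posterior replicate 1 (log2 difference -0.21 and -0.18), and per cell it was lower in 4 of 7 sections. Slc13a4 fell by 0.49 in the Htr2c-low set (edgeR adjusted p = 0.000365). The 5 rule genes are described without a test: Dcn had a log2 difference of 0.02, Igf2 of 0.01, Aldh1a2 of -0.48, Col1a1 of -0.46 and Fmod of -0.90. For Aldh1a2 the value was -0.16 in the Htr2c-low set.

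With the rule genes left out of the lists, 3 of 9 matrix genes rose and 3 fell (median log2 difference -0.33), and 1 of 4 insulin-like growth factor genes rose and 2 fell (-0.54). Of the 2 remaining genes of the retinoid and oxidative list, the enzyme gene Cyp1b1 rose and Rbp4, which encodes a retinol carrier, did not pass. All 3 transport and junction genes tested fell (-0.70), and 4 of 12 secreted signals and receptors rose and 5 fell (0.09). Beside the 30.0% of all genes called in each direction, the matrix and secreted lists were near the background. In the Htr2c-low set, where 25.1% of all genes were called higher and 24.0% lower, 2 of 9 matrix genes rose and 4 fell, 2 of 12 secreted signals and receptors rose and 4 fell (-0.07), and the 3 transport and junction genes fell (-0.49). Of the other markers, 2 of 3 ependymal markers rose and 6 of 14 neuronal markers fell, among them Gad1 and Slc17a7, which the rule limits. Neither count held in the Htr2c-low set, where 0 of 3 ependymal markers passed in edgeR and, of 13 neuronal markers, Pvalb rose and Foxp2 fell.

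Slc13a4, which was not used to choose the cells, was taken to divide them in another way. The 6055 fibroblasts with at least 3 Slc13a4 transcripts made up 59.8% to 69.4% of the fibroblasts of a section, and the 1235 with none made up 10.1% to 16.1%. Their median totals were 255 and 185 transcripts. Of 292 genes, 225 passed (77.1%), 107 higher (36.6%) and 118 lower (40.4%) in fibroblasts with Slc13a4. This balance depends on the scaling: 47.6% of the calls were higher with TMM and 28.4% of 243 calls with library size, and the median log2 difference of all genes was -0.16 with TMM and -0.68 with library size. Among fibroblasts with at most 2 Htr2c transcripts, 174 of 282 genes passed (61.7%), 77 higher (27.3%) and 97 lower (34.4%). Of the 225 calls, 142 were also made there in the same direction, 9 in the opposite one (Arhgef28, Cacna2d2, Car10, Ccdc141, Cobll1, Emcn, Npnt, Nrn1 and Pdzd2) and 74 not.

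Genes of the Htr2c-high profile led this division. Strip2, Htr2c and Vat1l had log2 differences of 4.23, 3.997 and 3.31 over all fibroblasts. Among those with at most 2 Htr2c transcripts the values were 0.13, 0.04 and -0.09. The latter are a description without a test, since that set was chosen by Htr2c itself, with which Strip2 and Vat1l go together. The fibroblast list differed in both sets of cells. Of 13 further fibroblast genes, 12 rose with Slc13a4 over all fibroblasts, where 36.6% of all genes were called higher (median log2 difference 1.05, against -0.16 over all genes). In the Htr2c-low set 12 rose, where 27.3% of all genes did (1.13, against -0.03). Slc13a4 itself belongs to this fibroblast list, so the division also sorts cells by their fibroblast transcripts. The rise of the other list members is therefore a description and no separate support for the label. Adamtsl1 passed over all fibroblasts (1.82 ± 0.17) and not in the smaller set (0.33 ± 0.21), and Fn1 did not pass over all fibroblasts (-0.21 ± 0.21) and passed in the smaller set (0.45 ± 0.16); these differences between sets were not themselves tested.

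Gjb2 had 1.63, 3.09 and 3.79 transcripts per cell (lowest, median and highest section) in fibroblasts with Slc13a4 and 0.655, 0.8125 and 0.963 in those without. The groups did not overlap. On the log2 scale Gjb2 differed by 1.93 ± 0.15 (SE; adjusted p = 6.60e-08, edgeR), or by 2.60 ± 0.11 among fibroblasts with at most 2 Htr2c transcripts. The transport and junction list as a whole did not rise. Of its 3 genes tested, Gjb2 rose and Cldn5 and Gjc3 fell in both sets of cells. The median log2 difference was -1.34 over all fibroblasts and -0.68 in the Htr2c-low set. Sema3d rose by 2.16 ± 0.15, and by 2.79 ± 0.15 in the smaller set. Rspo2, like Rspo3 an enhancer of Wnt signalling, had 0.0989, 0.213 and 0.568 transcripts per cell against 0.0176, 0.0444 and 0.0699, without overlap (log2 difference 2.53 ± 0.34, adjusted p = 1.32e-05). Its value was 3.23 ± 0.31 in the Htr2c-low set. Rbp4, which encodes the carrier of retinol, rose by 2.39 ± 0.22, and by 2.74 ± 0.30 in the Htr2c-low set.

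The 4 members of the insulin-like growth factor list that were not in the rule all rose, in both sets of cells. Of all genes, 36.6% were called higher over all fibroblasts and 27.3% in the Htr2c-low set. Igfbp6 rose by 1.64 ± 0.13 on the log2 scale over all fibroblasts and by 2.11 ± 0.13 in the Htr2c-low set, and Igfbp5 by 0.71 ± 0.09 and 1.05 ± 0.08. Igfbp4 rose by 1.33 ± 0.11 and, in the Htr2c-low set, by 0.73 ± 0.12. Igf1 rose by 0.73 ± 0.16 and 1.13 ± 0.16, and over all fibroblasts it no longer passed with library-size scaling (0.21) or the stricter member rule (0.37). Both genes of the retinoid and oxidative list outside the rule, Cyp1b1 and Rbp4, rose, with Cyp1b1 at 0.90 ± 0.12 and, in the Htr2c-low set, 1.20 ± 0.12.

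Of 9 matrix genes outside the rule 6 rose and 1 fell, Hapln1, which encodes a link protein of brain matrix, where 36.6% of all genes were called higher and 40.4% lower. In the Htr2c-low set, where 27.3% of all genes were called higher and 34.4% lower, 5 rose and 1 fell. The gene that fell was Npnt (-0.56), which had risen over all fibroblasts, and Hapln1 was at 0.02 and did not pass. Col6a1 rose by 1.11 ± 0.16, and by 1.46 ± 0.17 in the Htr2c-low set, and Spp1 by 0.90 ± 0.22 and 1.08 ± 0.27. Under library-size scaling Ccn2 had a log2 difference of -0.01 in place of 0.51, and Spp1 (0.38) and Adamts2 (0.08) no longer passed, nor did Ccn2 (0.02) and Spp1 (0.22) under the stricter member rule.

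Secreted signals and receptors rose in 10 of 13 cases and fell in 1, Acvrl1, where 36.6% of all genes were called higher and 40.4% lower. In the Htr2c-low set 9 rose and Acvrl1 fell, where 27.3% of all genes were called higher and 34.4% lower. Slit2, a guidance ligand, rose by 2.09 ± 0.19, and by 1.06 ± 0.16 in the Htr2c-low set. Kdr, an endothelial receptor gene, was at 0.28, which turned to -0.24 with library-size scaling. It no longer passed in the Htr2c-low set (0.02) or without anterior replicate 1 (0.20), intermediate replicate 2 (0.25), posterior replicate 1 (0.26) or posterior replicate 4 (0.28). Of the rule genes, described without a test, Fmod had a log2 difference of 2.37, Aldh1a2 of 1.57, Igf2 of 1.48, Col1a1 of 1.08 and Dcn of 0.84.

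Markers of other cells moved with this division as well. Of 14 endothelial markers 11 fell in fibroblasts with Slc13a4 and 3 rose (Emcn, Kdr and Paqr5), and among fibroblasts with at most 2 Htr2c transcripts 12 fell and 0 rose in edgeR. Cldn5, the tight junction claudin of brain endothelium, had 1.41, 1.81 and 2.55 transcripts per cell in fibroblasts with Slc13a4 and 3.77, 5.47 and 5.89 in those without (log2 difference -1.34 ± 0.11, edgeR adjusted p = 1.50e-07). Its value was -0.68 in the Htr2c-low set. Sox17 fell by 1.78 (1.30 in the Htr2c-low set) and Unc13c, a gene of synaptic release, by 2.19 (1.47). Where 40.4% of all genes were called lower, pericyte markers fell in 4 of 5 cases, oligodendrocyte markers in 4 of 5 and neuronal markers in 10 of 14. In the Htr2c-low set, with 34.4% of all genes lower, these counts were 4 of 5, 3 of 5 and 7 of 13. The neuronal counts hold genes that the rule limits and are a description. These were Gad1, Gad2, Slc17a6 and Slc17a7 over all fibroblasts, and Gad2 and Slc17a6 in the Htr2c-low set. All 3 ependymal markers rose (median log2 difference 2.33), and 2 of 3 did in the Htr2c-low set (0.51). Of 8 astrocyte markers Gfap and Slc39a12 rose and 3 fell (-0.05), and in the Htr2c-low set 4 rose and 2 fell (0.21). Beside these counts, 36.6% of all genes were called higher over all fibroblasts and 27.3% in the Htr2c-low set. Gfap rose by 0.51 ± 0.14, and by 1.22 ± 0.09 in the Htr2c-low set. The part of these cells' transcripts in the differences of fibroblast genes was not tested.

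**Figure D5:**
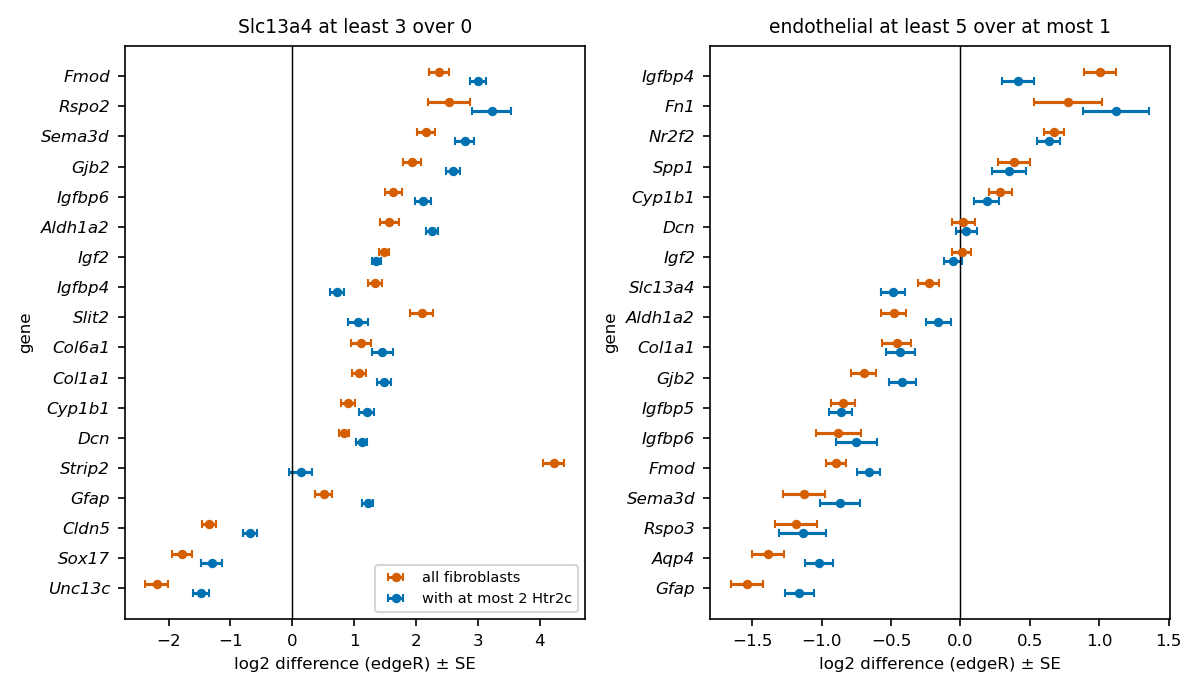
Log2 differences (edgeR, scaled with TMM, bars SE) between fibroblasts with at least 3 and with 0 Slc13a4 transcripts (left) and between fibroblasts with at least 5 and at most 1 endothelial transcripts (right), for all fibroblasts (orange) and those with at most 2 Htr2c transcripts (blue). Positive values are higher in fibroblasts with Slc13a4 or with endothelial transcripts. Strip2 is at 4.23 in orange and 0.13 in blue, a set chosen by low Htr2c, with which Strip2 goes together. Gjb2 is at 1.93 and 2.60. The rule genes Dcn, Col1a1, Aldh1a2, Fmod and Igf2 are shown as a description.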

How the data were processed

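Transcripts had been counted in situ in 7 hemisections, and the authors' deposited table holds whole-number counts per gene and segmented cell, not normalized. The gene counts added up to the deposited total of every cell (100%). The submitters' processing notes name Seurat. Not given in the sources used here were its version, how cells were outlined and whether cells were filtered. Barcodes joined the counts to the deposited table that names each cell's section, and no column of values was left unmapped.

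The members, the lists and the tests were chosen with earlier results of these data known. Levels are means of raw counts per cell and section. Counts were summed per section, or per section and subset, and fitted in edgeR 4.0.16 under R 4.3.3 with limma 3.58.1: filterByExpr, TMM, quasi-likelihood F test, Benjamini-Hochberg adjustment over all genes tested at 0.05. Position was fitted over all 7 sections without a block, and divisions of fibroblasts and interactions had the section as a block. Shares and depth were set against position with an exact permutation test, two-sided (Python 3.11.15, numpy 2.4.6, pandas 2.3.3, scipy 1.17.1; figures with matplotlib 3.10.9). Shares have 95% Wilson intervals, which cover counting error only. The script was tested on simulated counts. No doublet caller was run.

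Named genes are the rule genes, the further fibroblast genes, and examples from the 10 with the highest levels and the 10 with the largest ratios. Of each test they are examples from the 10 largest log2 differences in each direction and from the list members that passed, or the 5 smallest p where fewer than 5 passed. Marker lists are reported as counts, with examples. Serpinf1 entered by its ratio, and the genes of the replicate pattern and the Htr2c-high profile were chosen after their values were seen. Lyz2 of the macrophage list and 1 gene each of the transport and secreted lists were not analysed here. Alternatives were DESeq2 1.42.0, library size for scaling, no low-count filter, a stricter rule (Dcn and Col1a1 at least 8, five-gene sum at least 20), a looser rule, a minimum of 100 transcripts, thinning to the lowest section median (278), other divisions, other blocks, slide, and leaving out each section.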

Additional observations from a re-analysis of the deposited data

How the results depend on the processing

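The counts of genes called, the difference in fibroblast share and the directions of the named genes tallied below held under the alternatives run, with these exceptions and limits. Position calls were 0 in every alternative. The difference in fibroblast share was between 0.461 and 0.605 percentage points under other rules and depths, and between 0.322 and 0.747 without each section in turn, always positive. The difference in median transcripts per fibroblast was 7.0, and it turned to -5.0 without posterior replicate 4, the section with the deepest fibroblasts; without each section in turn it ran from -5.0 to 14.0. Without each section in turn, fibroblasts with endothelial transcripts against those without gave 160 to 172 calls, and fibroblasts with Slc13a4 against those without gave 211 to 220.

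Without fibroblasts with 3 or more Htr2c transcripts, log2 differences turned for Angpt1 in the endothelial division (-0.17), and for Vat1l (-0.0859), Pip5k1b (-0.0486), Hapln1 (0.0207) and Npnt (-0.56) in the Slc13a4 division. Outside the tally, Emcn (-0.54), Paqr5 (-0.22) and Slc39a12 (-0.06), which rose with Slc13a4 over all fibroblasts, also turned. So did the other calls listed above as made in the opposite direction. With library-size scaling Kdr (-0.24) and Ccn2 (-0.00886) turned in the Slc13a4 division. The cause was not tested. Of 688 values of 43 named genes in the endothelial division 660 kept direction and call and 27 lost the call, and of 782 values of 49 named genes in the Slc13a4 division 757 and 19 did.

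Shared replicate numbers are not stated to mark an animal. Deviations of sections with the same number went together: the correlation over 296 genes was 0.621 between anterior and intermediate sections, and 0.312 and 0.455 between posterior replicate 1 and the anterior and intermediate sections of replicate 1. With the replicate number as a block, 0 genes were called between posterior and anterior and 0 between intermediate and anterior sections, and a replicate block in place of the section block gave 171 and 225 calls in the 2 divisions. Summed fibroblast counts per section held between 257693 and 386809 transcripts.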
